A study of Mus musculus with 25 samples.

Results

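The 9 genes described here belong to the myelin sheath and were measured across the maternal-diet comparisons of a study of the mouse hypothalamus. They are Mbp, Mog, Mag, Mobp, Cnp, Mal, Cldn11, Opalin and Ermn, chosen by name as genes of mature oligodendrocytes and myelin. All 9 symbols occur among the 24421 genes of each of the authors' 4 deposited tables. The study sequenced poly(A) RNA, with a stranded library kit, from hypothalamus taken at 3 months of age from wild-type C57BL/6J mice. Dams were fed either HCD, a hypercaloric diet with 52% fat and much sucrose, or RD, a regular diet, starting 1 month before mating and continuing through pregnancy and lactation. Their offspring went onto either diet at weaning. The 8 groups, named by dam diet and then offspring diet, are HCD-HCD males (3 samples) against RD-HCD males (3), HCD-HCD females (3) against RD-HCD females (3), HCD-RD males (3) against RD-RD males (4), and HCD-RD females (3) against RD-RD females (3). The 4 comparisons set offspring of HCD dams against offspring of RD dams within 1 sex and 1 weaning diet, and they share no samples. Nothing in the labels states whether the samples of a group are from different litters, so the p-values reflect only sample-to-sample spread, which may be technical.

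Values of single libraries are not given here, because no label links the numbered library columns to samples. Each member is therefore described by its mean normalized count over the libraries of a table and by the authors' log2 fold change with its standard error. Values above 0 are taken to mean higher expression in the offspring of HCD dams. For HCD-weaned offspring the labels name the RD-dam group as control, which backs this reading without stating the denominator. For offspring weaned onto RD, only the order of the group names gives the direction. Where a reading is wrong, all signs of that table turn together. Only the RD-weaned tables were also tried with their signs turned.

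Oligodendrocytes wrap axons of the central nervous system in a compacted membrane, the myelin sheath, which speeds conduction and supports the axon. Mbp encodes myelin basic protein, which holds the cytoplasmic faces of the membrane together, and Mobp encodes a related small basic protein of compact myelin. Mag and Mog are immunoglobulin-family surface proteins, Mag on the membrane facing the axon and Mog on the outermost layer. Mal is a proteolipid of lipid-rich membrane domains, and Cldn11 forms the tight junctions between layers. Cnp, a cyclic nucleotide phosphodiesterase, keeps cytoplasmic channels open in the sheath. Ermn (ermin) binds actin in the oligodendrocyte cytoskeleton, and Opalin is a transmembrane glycoprotein of mature oligodendrocytes. The hypothalamus borders heavily myelinated tracts, the optic chiasm and the fornix among them. In bulk tissue, fewer oligodendrocytes and less RNA per oligodendrocyte cannot be told apart.

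Mbp had the highest mean normalized count of all 24421 genes in every one of the authors' deposited tables. Its share of the summed means was 1.22% for males and 1.24% for females weaned onto HCD, and 1.36% for males and 1.23% for females weaned onto RD. The 9 genes together made up 1.627%, 1.639%, 1.797% and 1.601% of the summed means in the same order, and the 8 without Mbp between 0.370% and 0.433%. Myelin transcripts were thus abundant in all 4 tables. Each table was normalized separately, so these shares are set side by side without a test.

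Per kilobase of exon, in ppm of a table's summed means, the members spanned a wide range. Mbp stood highest, between 1507 and 1678 over the 4 tables. Cnp followed with 366 to 442, Mal with 283 to 311 and Mag with 181 to 252. Below them lay Mobp (162 to 228), Cldn11 (129 to 171) and Mog (132 to 153). Opalin (43.8 to 55.4) and Ermn (44.9 to 49.99) were lowest. Of the 8 neighbouring pairs in this order, 4 had ranges over the tables that overlapped: Mag and Mobp, Mobp and Cldn11, Cldn11 and Mog, and Opalin and Ermn. The spread over tables was small for Mal, whose highest share was 1.10 times its lowest, and for Ermn and Mbp, at 1.11 times each. It was largest for Mobp, at 1.41 times, and Mag, at 1.39 times.

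**Figure D1:**
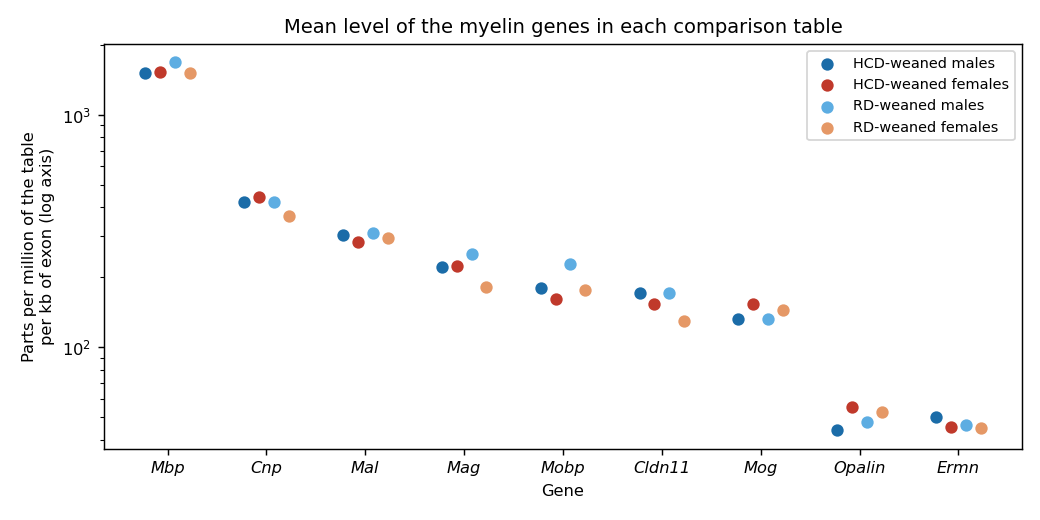
Mean level of the 9 myelin genes in each of the 4 comparison tables, as ppm of the table's summed mean normalized counts per kilobase of exon (log axis), with 1 point per table. Mbp lies between 1507 and 1678 in all 4 tables, and Opalin and Ermn lie between 43.8 and 55.4.

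Promoter sequence is shown for 4 members: Ermn and Mobp, which had the most negative values in HCD-weaned females, and Cnp and Cldn11, which were positive in all 4 tables in the direction read here. Each line is the 200 bases from 250 to 51 bases before the RefSeq start, read 5′ to 3′ on the gene's strand (GRCm38.p6), and capitals mark the searched motifs. The windows are chr2:58052915-58053114 (minus strand) for Ermn, chr9:120149492-120149691 (plus) for Mobp, chr11:100574689-100574888 (plus) for Cnp and chr3:31149670-31149869 (plus) for Cldn11.
Ermn: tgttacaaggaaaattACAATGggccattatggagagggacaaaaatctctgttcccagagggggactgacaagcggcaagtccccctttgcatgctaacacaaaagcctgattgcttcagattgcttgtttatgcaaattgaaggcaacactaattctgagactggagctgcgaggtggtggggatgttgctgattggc
Mobp: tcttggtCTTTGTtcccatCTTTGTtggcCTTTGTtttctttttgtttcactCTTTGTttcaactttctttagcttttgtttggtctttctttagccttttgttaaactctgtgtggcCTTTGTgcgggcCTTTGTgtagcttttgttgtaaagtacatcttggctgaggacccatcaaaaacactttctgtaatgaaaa
Cnp: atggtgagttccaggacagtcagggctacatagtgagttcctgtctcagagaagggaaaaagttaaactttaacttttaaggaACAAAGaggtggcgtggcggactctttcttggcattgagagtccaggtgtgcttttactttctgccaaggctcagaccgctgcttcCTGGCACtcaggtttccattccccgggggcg
Cldn11: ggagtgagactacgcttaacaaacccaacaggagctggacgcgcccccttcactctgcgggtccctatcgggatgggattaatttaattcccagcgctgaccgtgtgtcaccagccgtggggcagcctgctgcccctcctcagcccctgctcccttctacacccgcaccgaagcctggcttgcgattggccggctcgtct

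A small set of short motifs was searched on both strands of these windows: ACAAAG and ACAATG, which SOX factors can bind, CTGGCAC, a core of the Myrf motif, and the E-boxes CAGCTG and CATCTG. RefSeq windows were matched for 8 of the 9 members, with 10 windows in all. ACAAAG occurred in 5 of the 10 windows (genes Cnp, Mag, Mobp and Opalin) and in 13.6% of all 32851 windows. Mobp held 6 copies. CTGGCAC occurred in 2 of the 10 windows (Cnp and Mag) and in 3.30% of all windows. ACAATG was found in the Ermn window, against 8.90% of all windows, CATCTG in the Opalin window, against 12%, and CAGCTG in 0 of the 10, against 10.3%. The GC content of the printed windows ran from 37.5% in Mobp to 62.0% in Cldn11. These matches describe letters, not binding.

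In females weaned onto HCD, Ermn fell in offspring of HCD dams, and the other myelin genes did not pass. Ermn, on the minus strand of chromosome 2 from 58045113 to 58052864, had a mean normalized count of 3749 in the authors' deposited table. The authors' deposited table gives a log2 fold change of -0.81 ± 0.24 (SE; DESeq Wald test, adjusted p = 0.0469), a 1.75-fold lower value. It was the 1 called member of 9, at an adjusted p under 0.05 over 15043 genes tested, where 1.52% of all genes were called, 0.984% higher and 0.538% lower. The call lies close to the threshold. Computed from the authors' deposited p-values and statistics, Ermn did not pass without the filter on low counts (adjusted p = 0.0593), with the Wald statistic divided by its robust spread (0.165), or with a trend in exon length and GC content removed (0.120). With that trend removed its log2 fold change was -0.79, close to the deposited value.

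Mobp, on chromosome 9 from 120149707 to 120181484, had the most negative value of the 9 in this comparison: the authors' deposited table lists -0.92 ± 0.31 (SE; adjusted p = 0.0956). It did not pass, and 2.37% of tested genes had a lower fold change. Mal, on chromosome 2 from 127633226 to 127656695, stood at -0.34 ± 0.16 (SE; unadjusted p = 0.0301, adjusted p = 0.300), as the authors' deposited table lists. The 95% intervals of Ermn (-1.28 to -0.34), Mobp (-1.52 to -0.32) and Mal (-0.64 to -0.03) lay below 0. An unadjusted p under 0.05 was thus reached by 3 of 9 members, against 13.3% of all genes tested.

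The remaining 6 members missed the threshold. In the authors' deposited table Cldn11 (0.37 ± 0.22, SE), Cnp (0.34 ± 0.21) and Mag (0.27 ± 0.17) were positive. Mbp (-0.20 ± 0.25), Mog (-0.15 ± 0.21) and Opalin (-0.14 ± 0.29) were negative in the authors' deposited table. With 3 positive and 6 negative members, the median log2 fold change was -0.15, against 0.04 over all genes tested, of which 45.6% were negative. The distance from the lowest to the highest member was 1.28 on the log2 scale. The same distance was 0.70 for males weaned onto HCD, and 1.09 for males and 0.67 for females weaned onto RD, and a difference in spread was not tested.

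In males weaned onto HCD, no myelin gene passed, and most values lay above 0. Cnp, on chromosome 11 from 100574904 to 100591729, had the largest, 0.38 ± 0.25 (SE, with adjusted p = 0.695 from the authors' deposited table). Mag, on chromosome 7 from 30899176 to 30914873, stood at 0.35 ± 0.25 there, Opalin at 0.33 ± 0.28 and Mbp at 0.32 ± 0.25. Cldn11 stood at 0.21 ± 0.25, Mog at 0.07 ± 0.25, Mobp at 0.05 ± 0.27 and Mal at -0.04 ± 0.24 in the same authors' deposited table. Ermn was the lowest here, with -0.32 ± 0.25 listed by the authors' deposited table (adjusted p = 0.746). By the authors' DESeq test 0 of 9 members were called, against 0.163% of all 15384 genes tested (0.0455% higher, 0.117% lower), and 0 had an unadjusted p under 0.05, against 8.14% of all genes. The median of the members was 0.21, against -0.01 over all genes tested, of which 48.9% were positive.

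In males weaned onto RD, no myelin gene passed, and the members' median standard error was 0.34, against 0.215 to 0.25 in the other comparisons. Cldn11, on chromosome 3 from 31149920 to 31164324, had the highest value, 0.51 ± 0.29 (SE; unadjusted p = 0.0726), as the authors' deposited table lists, and 95.4% of tested genes lay lower. Mbp, on chromosome 18 from 82475146 to 82585637, had the lowest, -0.58 ± 0.34 (SE; unadjusted p = 0.0865), as the authors' deposited table lists, where 5.24% of tested genes lay lower. Opalin (-0.52 ± 0.45), Mobp (-0.41 ± 0.31), Mog (-0.19 ± 0.43), Mag (-0.12 ± 0.30) and Mal (-0.07 ± 0.40) were negative there, and Cnp (0.08 ± 0.22) was positive. For Ermn the authors' deposited table lists 0.20 ± 0.36 with no p-value. Of the 8 members with a p, 0 were called by DESeq, against 0.0851% of 12920 genes (0.0387% higher, 0.0464% lower), and 0 had an unadjusted p under 0.05, against 4.30%. The median of the 9 was -0.12, against 0.00 over all genes tested. The labels list 7 samples for this comparison and its count table holds 6 library columns.

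In females weaned onto RD, values were again mostly positive, with Cldn11 highest at 0.42 ± 0.20 (SE; unadjusted p = 0.0355, adjusted p = 0.729), as the authors' deposited table lists. Its 95% interval ran from 0.03 to 0.81. Cnp (0.28 ± 0.18), Mag (0.26 ± 0.17), Opalin (0.26 ± 0.24), Mog (0.22 ± 0.20), Ermn (0.17 ± 0.24) and Mal (0.17 ± 0.21) were positive in the authors' deposited table, and Mbp (-0.16 ± 0.25) and Mobp (-0.25 ± 0.27) were negative. No member was called by DESeq (0 of 9, against 0.346% of 15028 genes, 0.12% higher and 0.226% lower), and 1 of 9 had an unadjusted p under 0.05, against 6.16% of all genes. The members' median was 0.22, against 0.01 over all genes tested, of which 50.9% were positive. Mog lies on chromosome 17 from 37010743 to 37023398 and Opalin on chromosome 19 from 41061710 to 41077113, both on the minus strand.

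**Figure D2:**
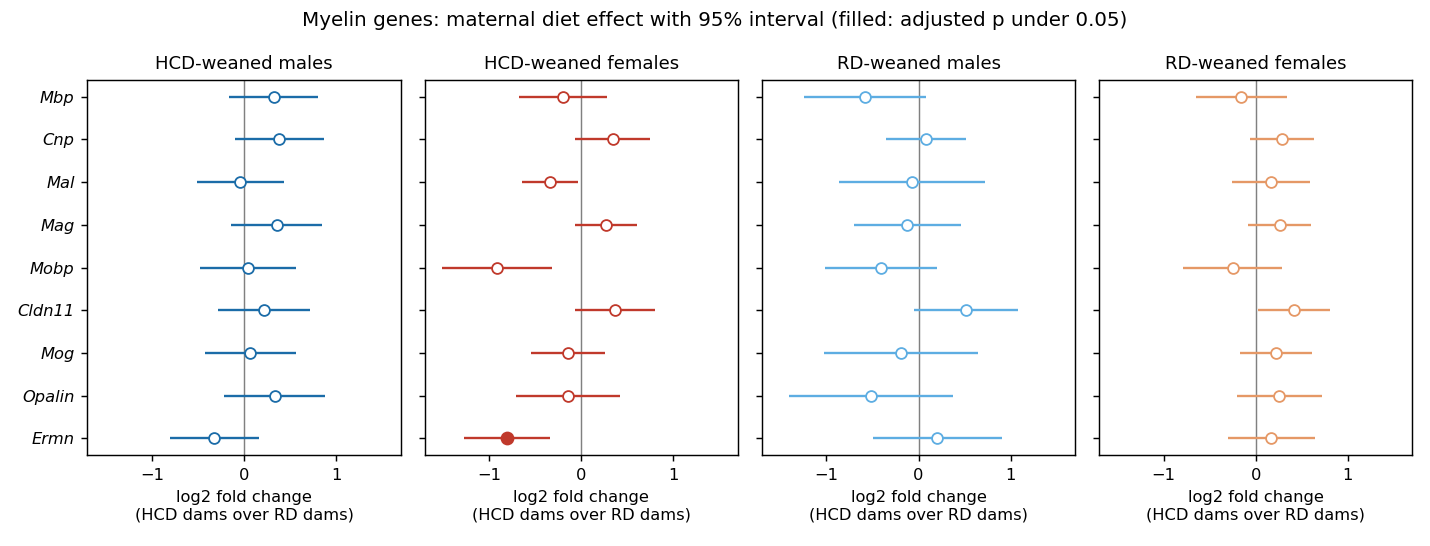
Authors' log2 fold change (offspring of HCD dams over offspring of RD dams) of each myelin gene in the 4 comparisons, with 95% intervals from the authors' standard errors; genes run from the highest to the lowest level per kilobase, and filled points have an adjusted p under 0.05. Only Ermn in HCD-weaned females, at -0.81, is filled.

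In the direction read here, Cnp and Cldn11 were positive in all 4 tables, and 0 members were negative in all 4. Of the 12604 genes with an adjusted p in all 4 tables, 12.7% were positive and 11.9% negative in all 4. Cldn11 ranged from 0.21 to 0.51 and Cnp from 0.08 to 0.38. Mbp, Mobp and Mal were each negative in 3 of the 4 tables, with 1 positive value. If both RD-weaned tables run the other way, Cnp and Cldn11 are each positive in 2 tables, and Ermn is the 1 member negative in all 4, against 7.1% of genes.

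The precision of the tables limits what could be called. The smallest absolute Wald statistic among called genes was 3.37 for females weaned onto HCD and 4.09 for males weaned onto RD. At the members' median standard error this corresponds to an absolute log2 fold change of 0.74 in HCD-weaned females, 0.81 in RD-weaned females, 0.99 in HCD-weaned males and 1.38 in RD-weaned males. At the smallest standard error of a member it corresponds to 0.52, 0.66, 0.96 and 0.91 in the same order, and at the largest to 1.03, 1.03, 1.11 and 1.85.

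**Figure D3:**
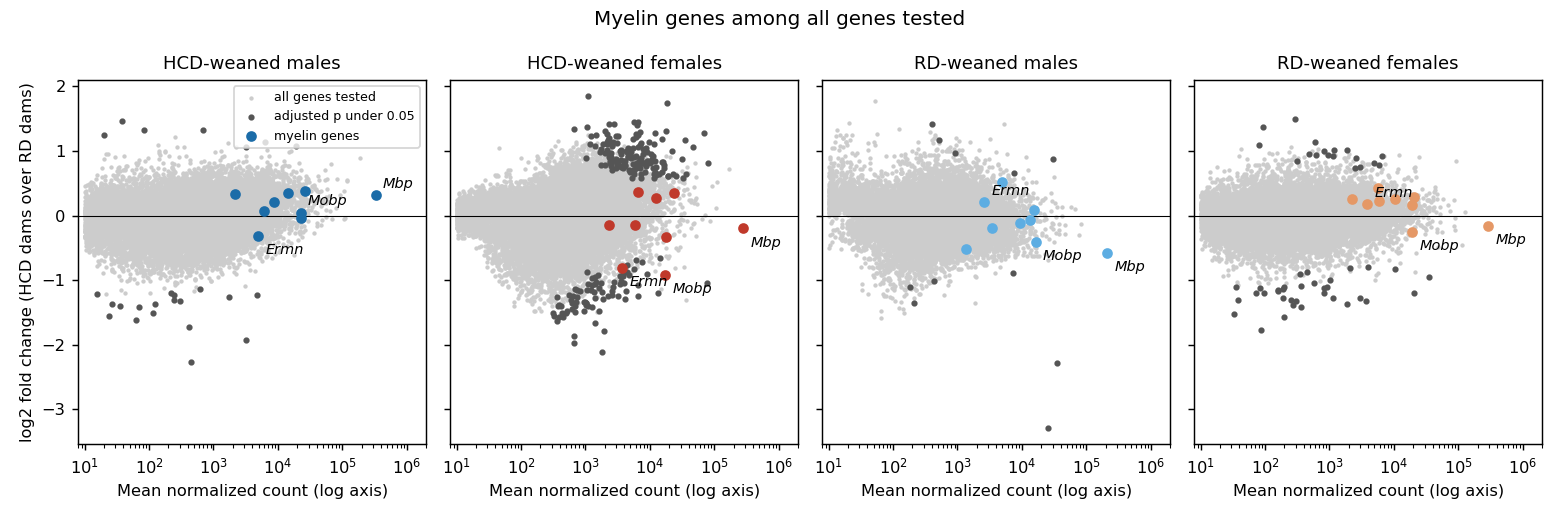
Log2 fold change (offspring of HCD dams over offspring of RD dams) against mean normalized count (log axis) for all genes tested in each comparison (light grey), genes with an adjusted p under 0.05 (dark grey) and the 9 myelin genes (coloured). Mbp is the point farthest to the right in every panel, and Ermn and Mobp lie at -0.81 and -0.92 in HCD-weaned females.

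The difference between comparisons was tested directly, gene by gene, for all genes whose p was adjusted in each of the paired tables. Between HCD-weaned males and HCD-weaned females, 8 of 9 members had the higher fold change in males, with a median difference of 0.30. Mobp differed most: from 0.05 for males and -0.92 for females in the authors' deposited tables, the difference was 0.96 ± 0.41 (SE; unadjusted p = 0.0174, adjusted p = 1). By this normal test 0 of 9 members passed after Benjamini-Hochberg adjustment, as for all 14947 genes (0%), and 1 member had an unadjusted p under 0.05, against 0.642% of all genes. Between RD-weaned males and RD-weaned females, 7 of the 8 members tested had the lower fold change in males, with a median difference of -0.31. There 0 of 8 passed, against 0.00791% of genes, and 0 had an unadjusted p under 0.05, against 3.05%. The signs of this pair of tables turn together if the direction read is wrong.

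The maternal-diet fold changes were compared between weaning diets in the same way, so these differences are not effects of weaning diet on expression. For females, the authors' deposited tables list Ermn at -0.81 after HCD weaning and 0.17 after RD weaning, a difference of -0.98 ± 0.34 (SE; unadjusted p = 0.00369, adjusted p = 0.718). Its 95% interval was -1.64 to -0.32. Mal differed by -0.51 ± 0.27 between the authors' deposited tables (SE; unadjusted p = 0.0567, adjusted p = 0.992). In all, 7 of 9 members had the lower maternal-diet fold change after HCD weaning. Of the 9, 0 passed, against 0.00685% of 14603 genes, and 1 had an unadjusted p under 0.05, against 5% of genes. For males, the authors' deposited tables list Mbp at 0.32 after HCD weaning and -0.58 after RD weaning, a difference of 0.90 ± 0.42 (SE; unadjusted p = 0.032, adjusted p = 0.978). Of 8 members tested 7 had the higher maternal-diet fold change after HCD weaning. Of the 8, 0 passed, against 0.00775% of 12910 genes, and 1 had an unadjusted p under 0.05, against 3.84%. With the RD-weaned tables turned, 4 of 9 members had the lower fold change after HCD weaning in females. For males 3 of 8 had the higher one, and 0 passed in either sex. From the authors' deposited tables turned in this way, Ermn differed by -0.64 ± 0.34 in females (SE; adjusted p = 0.366) and Mbp by -0.26 ± 0.42 in males (SE; adjusted p = 1). Mobp then had the most negative difference in females, -1.17 ± 0.41 (SE; adjusted p = 0.113, from the authors' deposited tables). The order of the members and the counts by sign thus depend on the direction, and the absence of calls does not. The Ermn call in HCD-weaned females is therefore not shown to be particular to them.

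The Wald statistic fell with exon length in both HCD-weaned comparisons and, more weakly, in RD-weaned females, but not in RD-weaned males. Across genes, which are not independent replicates, Spearman's rho between the Wald statistic and exon length was -0.559 for males and -0.460 for females weaned onto HCD, and 0.092 for males and -0.221 for females weaned onto RD. The members with the longest exon sequence were Mbp (8.12 kb), Mobp (4.69 kb) and Ermn (3.63 kb), and the shortest was Mog (1.704 kb). Ermn also had the lowest GC content, 38.0%, and Mag the highest, 57.6%. In HCD-weaned females, the trend in length and GC content predicted a Wald statistic of -0.09 for Ermn, -0.18 for Mobp and 0.19 for Mal. With it removed, their statistics were -3.31, -2.82 and -2.36, against -3.40, -3.004 and -2.17 in the authors' deposited table. For Mbp the predicted value in that table was -0.86 and the deposited one -0.82, and in HCD-weaned males they were -0.89 and 1.29.

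**Figure D4:**
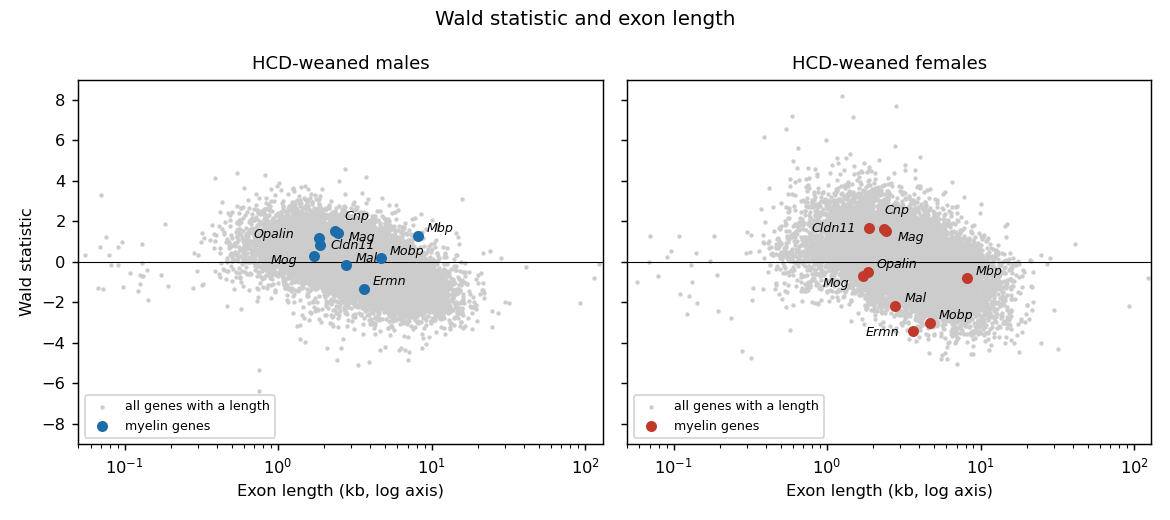
Wald statistic of the authors' deposited tables against exon length (log axis, kilobases) for all genes with a length (grey) and the 9 myelin genes (coloured), in HCD-weaned males and HCD-weaned females. Ermn and Mobp lie low among the genes in females, at -3.40 and -3.004, and Mbp, the longest member at 8.12 kb, lies at 1.29 in males.

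Of 32 other genes of mature oligodendrocytes and myelin, 1 was called in HCD-weaned females, 0 higher and 1 lower. Over all genes tested there, 1.52% were called, 0.984% higher and 0.538% lower. In each of the other 3 comparisons 0 of the 32 were called. The shares over all genes were 0.163% for HCD-weaned males, 0.0851% for RD-weaned males and 0.346% for RD-weaned females. Their medians were 0.14 for males and 0.04 for females weaned onto HCD, and -0.02 for males and 0.19 for females weaned onto RD. The called gene was Gjc3, a gap junction connexin gene, for which the authors' deposited table lists -1.12 ± 0.30 (SE; adjusted p = 0.0257). Klk6, a protease gene of oligodendrocytes, had the smallest p in HCD-weaned males, where the authors' deposited table lists 0.82 ± 0.27 (SE; adjusted p = 0.307). Sirt2, a deacetylase gene abundant in myelin, had -0.51 ± 0.17 for RD-weaned males in the authors' deposited table (± SE, with adjusted p = 0.413). Enpp2, which encodes autotaxin and is also strong in choroid plexus, had 0.59 ± 0.19 for RD-weaned females in the authors' deposited table (± SE, with adjusted p = 0.163).

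Transcription factors of the oligodendrocyte lineage had 1 called gene of 11 in any comparison, Olig1, which rose in HCD-weaned females: the authors' deposited table lists 0.58 ± 0.16 (SE; adjusted p = 0.0365). In that comparison 0.984% of all genes tested were called higher. Olig1 is required for oligodendrocyte maturation and also counts among the 10 genes listed for precursors. Sox10, a factor needed for myelin gene expression, had -0.39 ± 0.23 in the authors' deposited table for the same females (± SE, with adjusted p = 0.491). The other 9 precursor genes had no call in any comparison, and C1ql1 had the next smallest p in HCD-weaned females, with 1.16 ± 0.37 listed in the authors' deposited table (± SE, with adjusted p = 0.0758). Ptprz1 came next, at -0.99 ± 0.34 in the authors' deposited table (± SE, with adjusted p = 0.106). Of the 10 precursor genes, 4 were positive and 6 negative in those females, where 45.6% of all genes tested were negative. Medians of the precursor list were -0.34 for males and -0.21 for females weaned onto HCD, and -0.08 for males and -0.04 for females weaned onto RD.

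None of 9 genes of newly formed oligodendrocytes was called in any comparison, with list medians between -0.25 and 0.10. Gpr17, a receptor gene of differentiating precursors, stood at -0.60 ± 0.30 in HCD-weaned females (unadjusted p = 0.0428, adjusted p = 0.353), as the authors' deposited table lists. Tnr, which encodes the matrix protein tenascin-R, had -0.99 ± 0.41 in the authors' deposited table for the same females (adjusted p = 0.221). Of the 9 genes for myelin glycolipids, 0 were called, with medians of -0.02 for males and 0.26 for females weaned onto HCD, and 0.04 for males and 0.23 for females weaned onto RD. Ugt8a, which makes galactosylceramide, stood at -0.64 ± 0.24 in HCD-weaned females (adjusted p = 0.160) and at 0.61 ± 0.35 in RD-weaned males (adjusted p = 1), as the authors' deposited tables list. Of 14 cholesterol synthesis genes 0 were called in any comparison, with medians between -0.05 and 0.18. On the axonal side, 11 measured genes of the node of Ranvier and the axoglial junction held 0 calls. All 11 were negative in HCD-weaned males (median -0.32, against 51.1% of all genes tested negative) and 9 of 11 in HCD-weaned females (median -0.24, against 45.6%). In RD-weaned males 5 of 11 were negative (median 0.08), and in RD-weaned females 7 of 11 (median -0.10). By the authors' DESeq test, an unadjusted p under 0.05 was reached in a comparison by at most 2 genes of newly formed oligodendrocytes, 1 glycolipid gene, 1 cholesterol gene and 3 node or junction genes. Ank3, the ankyrin-G gene of the node, stood at -0.75 ± 0.26 in HCD-weaned females (adjusted p = 0.107), and Cntnap1, the paranodal Caspr gene, at -0.82 ± 0.30 (adjusted p = 0.145), as the authors' deposited table lists.

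**Figure D5:**
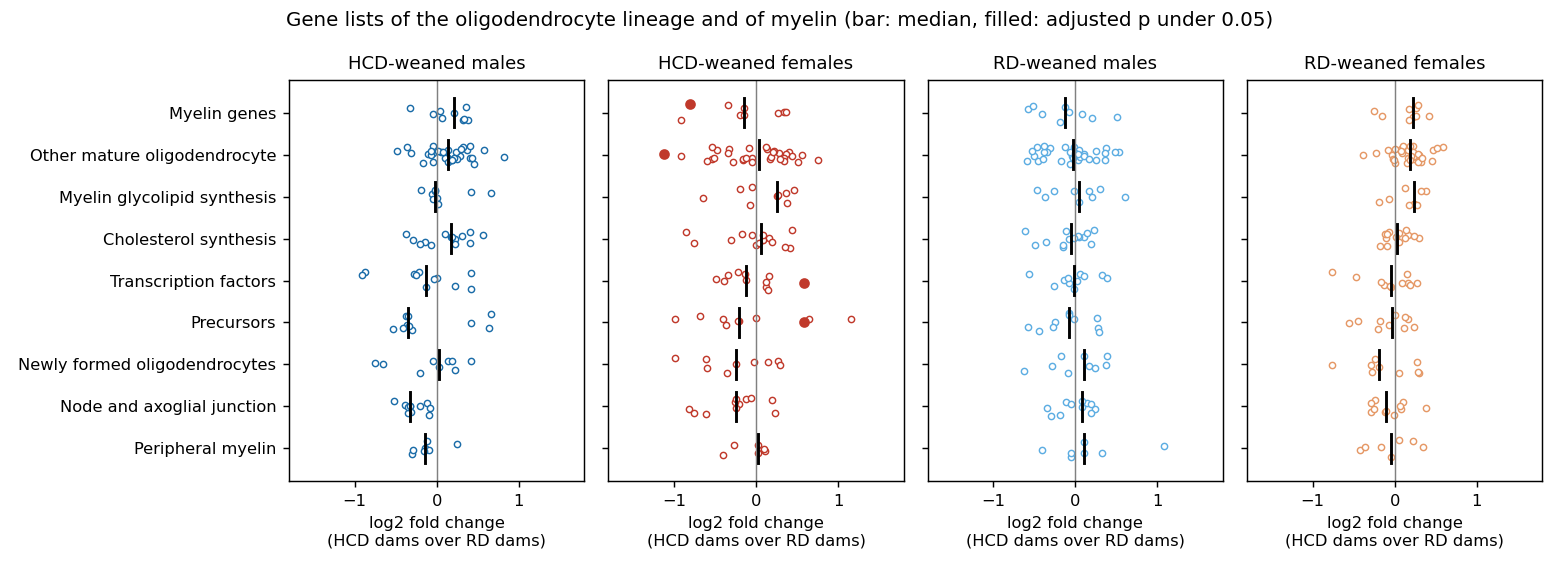
Log2 fold change (offspring of HCD dams over offspring of RD dams) of each gene in 9 lists of the oligodendrocyte lineage and of myelin, by comparison; black bars are medians and filled points have an adjusted p under 0.05. Filled points occur in HCD-weaned females alone: Ermn at -0.81, Gjc3 at -1.12 and Olig1 at 0.58, the last drawn in both the transcription factor and the precursor list.

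The genes whose 4 fold changes lay closest to the members' 4 medians, by Euclidean distance over the 4 comparisons and among 12437 genes outside the lists, were 1110046J04Rik (distance 0.028), Nek6 (0.041), Gtf2h3 (0.046), Vwa1 (0.075) and Coro1b (0.085). None of the 5 passed in any comparison of the authors' deposited tables. The members themselves lay at distances from 0.16 (Mog) to 0.96 (Mobp), and 83.3% of those genes were nearer to the medians than Mobp was.

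Markers of other tissues and cell types moved with some of these comparisons. Peripheral myelin genes, which mark Schwann cells of nerve roots, summed to between 98.7 and 109 ppm of a table, against 16012 to 17966 for the 9 myelin genes. Of the 7 genes, 4 to 6 had an adjusted p in a table, 0 were called by DESeq, and at most 1 had an unadjusted p under 0.05. Astrocyte markers were negative in 6 of 8 in HCD-weaned females (median -0.35), where the water channel gene Aqp4 fell (-1.25 in the authors' deposited table). They were also negative in 5 of 8 in HCD-weaned males and in 7 of 8 in each RD-weaned comparison, with medians between -0.24 and -0.18. Neuron markers had 1 call in each of 2 comparisons, both higher: Tubb3, a neuronal tubulin gene, in HCD-weaned females (listed at 0.83 by the authors' deposited table) and Snap25, a synaptic gene, in RD-weaned males (0.88 in the authors' deposited table). In HCD-weaned females 6 of 9 neuron markers were positive (median 0.19), while Map2 stood at -0.64 in the authors' deposited table (adjusted p = 0.116). In RD-weaned males 4 of 9 neuron markers were positive (median -0.01). Positive neuron markers numbered 6 of 9 in HCD-weaned males (median 0.11) and 3 of 9 in RD-weaned females (median -0.05). Choroid plexus markers were positive in 5 of 6 in RD-weaned females (median 0.76), with Kl and Kcnj13 called higher, and their medians lay between -0.12 and 0.03 elsewhere. Microglia markers were positive in 7 of 9 in HCD-weaned females (median 0.44) and in 9 of 9 in RD-weaned females (median 0.34). They had 0 calls by DESeq and at most 2 markers at an unadjusted p under 0.05. Markers of thalamus and habenula, which adjoin the dissected region, were negative in 10 of 11 in RD-weaned females (median -0.71, 3 called lower), and telencephalon markers were positive there in 10 of 10 (median 0.55). Thalamus and habenula markers were positive in 9 of 11 in HCD-weaned males (median 0.31, 1 called higher) and in 11 of 11 in RD-weaned males (median 0.36). Telencephalon markers were negative in 9 of 10 in HCD-weaned males (median -0.53). They were positive in 9 of 10 in HCD-weaned females (median 0.24) and in 7 of 10 in RD-weaned males (median 0.19). Hypothalamic neuron markers were negative in all 14 in HCD-weaned males (median -0.83, 5 called lower). They were also negative in 11 of 14 in HCD-weaned females (median -0.15) and in 10 of 14 in RD-weaned males (median -0.105). In RD-weaned females 13 of 14 were negative (median -0.23). Over the tables these markers summed to between 186 and 485 ppm. The part of these markers in the myelin values was not tested.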

How the data were processed

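Hypothalamic poly(A) RNA of 25 mouse samples was sequenced. DESeq (version not stated) and the build mm10 are named per the submitters' processing notes. For the aligner, counter and annotation, nothing is given in the sources consulted. Of the deposited files, the authors' 4 comparison tables were used. Per the file headers, these hold a mean normalized count (used as a signal per gene), a log2 fold change and its standard error, a Wald score, and a p-value with its adjusted p-value. In the deposited tables, fold changes of genes with low counts lie close to 0, and no gene with a mean under 10 has an adjusted p.

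The other 8 files hold 48 columns of single libraries that no label ties to a sample, and were not used, so the planned count test and depth per sample are missing. Levels were divided by the table's summed means (15402649 to 26951335) and by exon length (GENCODE M21, GRCm38, basic set). Differences between tables were tested two-sided against a normal distribution, with the standard error combined from the pair of tables, with Benjamini-Hochberg adjustment over all genes. The calculation was checked on simulated data drawn from the same normal distribution, with large changes added to 200 genes. Such data cannot show whether the test suits the real tables or finds small differences. Intervals are 95% and normal. Alternatives were an adjusted p under 0.10, other filters (a mean of at least 10, of at least 100, or none), centring, the robust spread, and removal of a quadratic trend in exon length and GC content. Python 3.11.15, pandas 2.3.3, scipy 1.17.1 and statsmodels 0.14.6 were used. Members and gene lists were chosen with earlier results of these data known. Named genes are the 9 members, list genes called or with the smallest p, and the 5 genes nearest the members' medians. Of 192 listed symbols, 1 does not occur in the tables.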

Additional observations from a re-analysis of the deposited data

How the results depend on the processing

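Of 245 repeats of single members' results, 239 kept direction and side of the threshold. Much of this was fixed in advance. Only centring and removal of the trend changed a fold change, so direction could not turn in the other alternatives. The filter at a mean of at least 10 adjusted over as many genes as the main result and so repeated it. Besides Ermn, which lost its call in HCD-weaned females in 3 alternatives, Mobp passed there at an adjusted p under 0.10. The number of called members in HCD-weaned females, 1, became 2 at an adjusted p under 0.10, and 0 without the filter on low counts, with the Wald statistic divided by its robust spread, and with the length and GC trend removed. Removing that trend turned Mog in HCD-weaned males to -0.069 and Mbp in HCD-weaned females to 0.010. The cause was not tested. The other 3 comparisons kept 0 called members, and the 4 differences 0 differing members, in all alternatives run. Over all genes, calls of HCD-weaned females went to 450 at an adjusted p under 0.10, 56 by robust spread and 54 without the trend, against 229. Those of HCD-weaned males went to 16 (mean of at least 100) and 3 (robust spread), against 25. Those of RD-weaned males went to 23 (adjusted p under 0.10), 74 (robust spread) and 6 (trend removed), against 11, and those of RD-weaned females to 90 (adjusted p under 0.10), against 52. From the authors' deposited tables, with the sign of the RD-weaned one turned, 186 genes differed between HCD-weaned and RD-weaned females and 4 between the males, against 1 each, and no member did (lowest adjusted p = 0.113 and 0.900). The counts of members by sign with those tables turned were added after seeing the data.

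No paired analysis was possible because the library columns carry no number that the labels give. Another normalization or tool and leaving out replicates were not run for the same reason.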

Other observations

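Among the other mature oligodendrocyte genes of HCD-weaned females, 11 of 32 had an unadjusted p under 0.05, against 13.3% of all genes tested. Gpr37, an orphan receptor gene, and Adamts4, a protease gene, were named after their values were seen. The authors' deposited table lists -0.59 ± 0.21 for Gpr37 (SE; adjusted p = 0.127) and -0.92 ± 0.33 for Adamts4 (SE; adjusted p = 0.137).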
